A study of Picea abies with 36 samples.

Results

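Norway spruce (Picea abies) hypocotyls treated with the cytokinin 6-benzylaminopurine together with the auxin indole-3-acetic acid (BAP+IAA) were compared with mock-treated hypocotyls on day 5, the earliest of the collection days analysed here. The comparison took in 6 of the 36 hormone libraries of the series, 3 BAP+IAA and 3 mock, chosen by the treatment and day in their labels, and covered every gene of the count table. The series belongs to a study of conifer grafting, in which hormone treatments were used to learn which spruce genes respond to auxin and cytokinin. Wild-type seedlings of seed source FP-518 TreO G7 Söregärde were used. Hormones were applied in a lanolin paste on the middle of the hypocotyl, and the treated segment was harvested for poly-A RNA-seq. The BAP+IAA paste held both hormones, and the IAA and BAP pastes held 1 of them. Mock tissue is labelled as given neither hormone, and the study's methods do not describe the mock treatment further. The labels give 135 mM BAP and 50 mM IAA, while another part of the study's text writes the BAP dose in micromolar, so the BAP dose is uncertain. Each library was made from the pooled tissue of several plants, and the pools were independent. Since the whole segment was sequenced, fewer cells of a type and less RNA per cell cannot be told apart.

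Auxin is perceived by receptors that bring about the breakdown of Aux/IAA repressors, which frees auxin response factors to act on their targets. Among the usual early targets are the Aux/IAA genes themselves, GH3 enzymes that conjugate auxin to amino acids, and SAUR genes. Cytokinin is perceived by histidine kinases and acts through response regulators, and both hormones are known to govern cell division and the formation of vascular tissue in stems.

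The BAP+IAA libraries held 15326445 to 20242901 gene counts and the mock libraries 13676591 to 18662252. Between 41884 and 42832 genes had a count in BAP+IAA tissue, against 41289 to 42212 in mock tissue. The 100 most abundant genes took 14.61 to 14.77% of counts with BAP+IAA and 16.82 to 18.09% with mock. Across expressed genes the root mean square log2 difference was 0.58 to 0.644 between BAP+IAA libraries and 0.597 to 0.691 between mock libraries, and it was 1.25 to 1.49 between libraries of the 2 groups. No library stood apart from its group by this measure. The tissue could be checked against few markers: the phloem gene PaAPL-like (MA_201937g0010) had 2.48 ± 0.26 CPM with BAP+IAA and 3.01 ± 0.863 CPM with mock (SD, n = 3 each; CPM is counts scaled to a library of 1000000), and the xylem regulator PaVND4-like (MA_6777g0010) had 30.5 ± 1.37 and 41.5 ± 12.7 CPM. Only 1 described gene of green tissue was tested, at 0.777 ± 0.296 CPM with BAP+IAA and 1.20 ± 0.177 CPM with mock. None of the 3 passed the test below. Another xylem gene, PaPRX66-like (MA_10431507g0020), had 2.66 ± 0.427 CPM with BAP+IAA and 1.04 ± 0.426 CPM with mock, and narrowly passed it. For PaCDKB2;2-like (MA_920994g0010), a gene of dividing cells, all BAP+IAA libraries lay above all mock libraries. Its rise was smaller than the test required.

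BAP+IAA changed a large part of the expressed genome in both directions. Of 38732 genes tested, 3950 (10.2%) rose and 4247 (11.0%) fell, where a call needed an adjusted p below 0.05 and a log2 fold change (log2FC, BAP+IAA over mock) beyond 1 in edgeR's quasi-likelihood test with Benjamini-Hochberg adjustment. The median log2FC of all tested genes was 0.01. The rises were larger than the falls, with a median log2FC of 2.38 among the higher genes and -1.86 among the lower ones. A log2FC above 4 was reached by 1069 of the higher genes, against 410 of the lower genes beyond that size. For 3788 of the higher genes (95.9%) all 3 BAP+IAA libraries lay above all 3 mock libraries, and for 4062 of the lower genes (95.64%) all lay below. Among all tested genes 26.66% were separated upwards in this way and 25.86% downwards. The higher genes took 13.31, 14.28 and 15.54% of the scaled counts in BAP+IAA libraries, against 3.363, 3.86 and 3.888% in mock libraries. For the lower genes the shares were 5.704, 5.865 and 5.631% with BAP+IAA and 20.48, 18.75 and 21.24% with mock. No count was found in any mock library for 395 of the higher genes, and none in any BAP+IAA library for 111 of the lower genes.

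Among the regulators that the study tied to wound healing and regeneration, PaERF115-like and PaMYB123-like changed the most. PaERF115-like (MA_10274g0010) is a homologue of an ethylene response factor that in Arabidopsis acts together with the GRAS protein PAT1 in tissue regeneration. The coding sequences of these partners begin as follows, given here because the study cloned both genes, with the start codon in capitals and the strand read 5′ to 3′ from its cloning primers.
PaERF115-like: ATGgcgagcaagacagatc
PaPAT1-like: ATGaatgtgcagttcaagac
PaERF115-like had 5.89, 4.1 and 3.48 CPM in BAP+IAA tissue and no count in any mock library. With 227 reads against a floor of 3 reads over the mock group it was at least 69.5-fold higher (edgeR quasi-likelihood test, adjusted p = 8.31e-08). This bound and later ones of its kind pool the reads of a group and cover counting error only, not the spread between libraries. PaPAT1-like (MA_10426489g0020) was present in both groups with overlapping values, 8.31, 7.23 and 10.0 CPM in BAP+IAA tissue and 6.74, 6.02 and 7.83 CPM in mock tissue. Its log2FC of 0.31 ± 0.20 (SE) did not pass the test, with an adjusted p of 0.221 in edgeR's quasi-likelihood test. The 2 genes of the cloned pair therefore differed in how they stood on day 5, 1 called and 1 not, and the difference between them was not tested.

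PaMYB123-like (MA_10048467g0010), described as a MYB5-like repressor, had 82.0, 55.2 and 54.4 CPM with BAP+IAA, against 0.891, 1.61 and 2.43 CPM with mock. The groups were far apart, at a log2FC of 5.25 ± 0.38 (edgeR adjusted p = 3.35e-11). PaWOX13-like (MA_116716g0010) is a homologue of a homeobox gene needed for callus and graft union in Arabidopsis. It had 4.45, 3.5 and 4.54 CPM, against 0.827, 0.954 and 1.65 CPM with mock, and rose with a log2FC of 1.84 ± 0.34 (edgeR adjusted p = 5.95e-05). The zinc finger gene PaWIP4-like (MA_29238g0010) had 39.5, 32.1 and 39.7 CPM with BAP+IAA and 8.91, 15.9 and 17.5 CPM with mock, a log2FC of 1.39 ± 0.20. Its 3 BAP+IAA libraries all lay above the mock range.

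Other regulators of the same kind were not called. PaWIND1-like (MA_98464g0010), homologue of an Arabidopsis factor that promotes dedifferentiation at wounds, had 4.71, 1.81 and 3.68 CPM with BAP+IAA and 2.61, 4.11 and 4.58 CPM with mock, and the groups overlapped. PaLRP1-like (MA_2299g0010), whose Arabidopsis homologue marks lateral root primordia, stood at 2.88 ± 0.589 CPM with BAP+IAA and 2.80 ± 1.46 CPM with mock. PaMYB4-like (MA_316475g0010) overlapped as well, at 1.43 ± 0.645 and 2.16 ± 1.01 CPM. Of the wider set of 61 tested transcription factors that the study selected from its graft libraries, 15 rose and 9 fell, beside 10.2% and 11.0% of all genes, with a median log2FC of 0.32 beside 0.01. LOB domain-containing 1-like (MA_451290g0010) had the largest called fall of that set, at 0.0655, 0.663 and 0.504 CPM with BAP+IAA against 1.34, 4.62 and 4.91 CPM with mock.

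**Figure D1:**
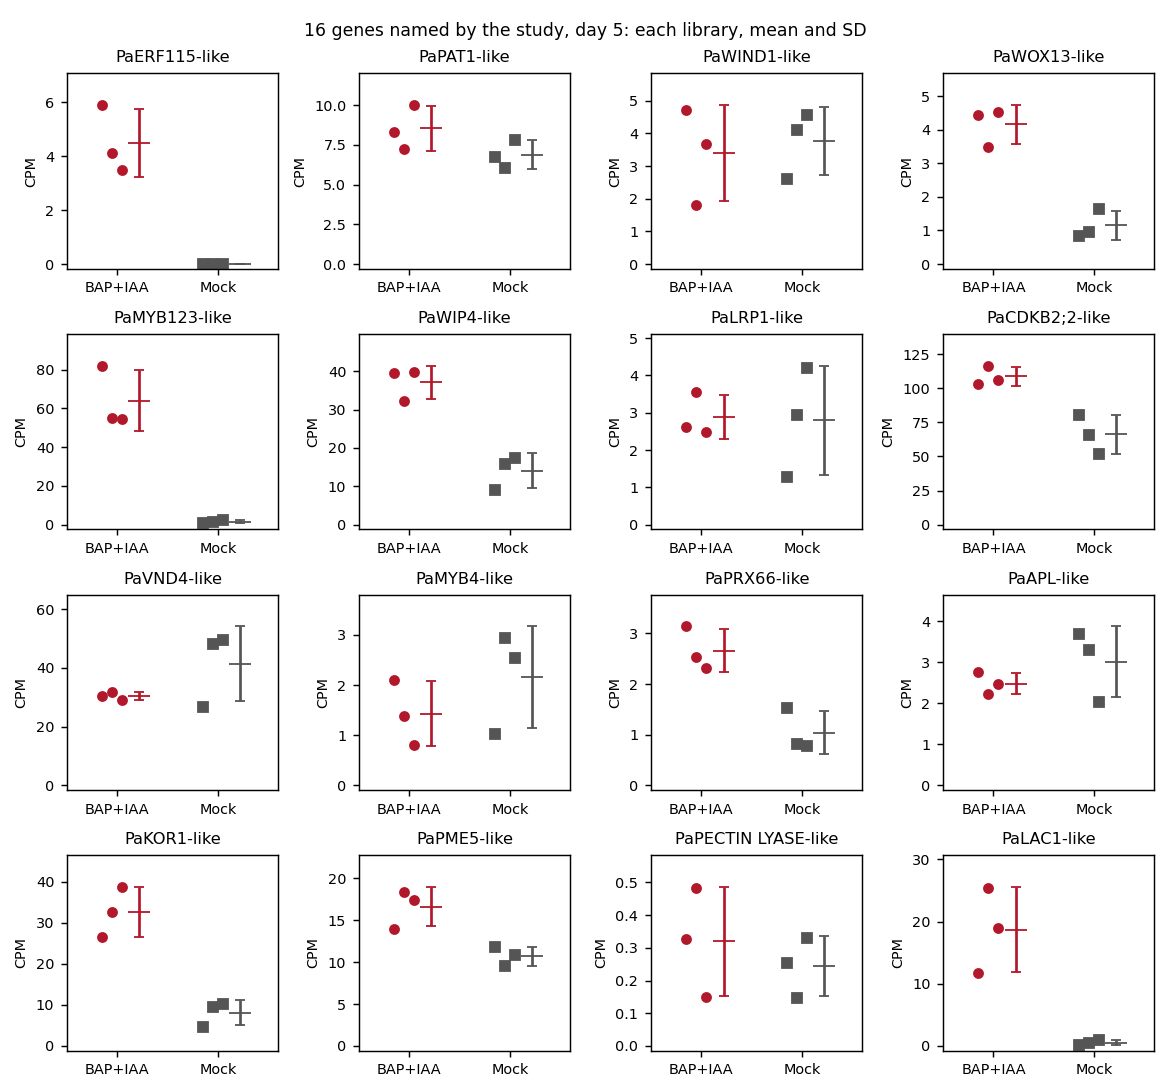
CPM (y axis, 1 panel per gene) of the 16 genes singled out by name and identifier in the study, in 3 BAP+IAA libraries (circles) and 3 mock libraries (squares), with the mean and SD beside the points. PaERF115-like, PaMYB123-like, PaLAC1-like and PaKOR1-like are separated between the groups, while PaWIND1-like, PaLRP1-like and PaPECTIN LYASE-like overlap.

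Most tested GH3 and Aux/IAA genes of the auxin pathway rose. The study chose these genes among its IAA-responsive genes, on libraries that share the mock with this comparison, so their direction is not independent evidence. Of 7 tested GH3 genes 6 rose, beside 10.2% of all genes, with a median log2FC of 5.39. Summed over the family, GH3 transcripts reached 382.2, 558.5 and 983.2 CPM in BAP+IAA tissue, against 7.89, 12.8 and 17.8 CPM in mock tissue. The GH3 gene with the largest rise (MA_10330250g0010), an indole-3-acetic acid-amido synthetase, had 33.3, 83.2 and 263.2 CPM with BAP+IAA. In mock tissue it had no count in 2 libraries and 0.331 CPM in the third, and the log2FC was 9.89 ± 1.09 (edgeR adjusted p = 5.09e-08). The BAP+IAA libraries were thus spread widely among themselves and all lay above mock.

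Among 10 tested Aux/IAA repressors 7 rose and 1 fell, beside 10.2% and 11.0% of all genes. IAA11 (MA_10431605g0010) had 70.1, 99.5 and 143.2 CPM with BAP+IAA against 3.37, 8.0 and 6.78 CPM with mock, a log2FC of 4.11 ± 0.31 (edgeR adjusted p = 5.93e-11). IAA26-like (MA_18664g0010) went the other way, with 12.1, 16.5 and 21.3 CPM against 56.1, 57.8 and 62.9 CPM, a log2FC of -1.82 ± 0.20. Neither pair of groups overlapped. Of 5 tested auxin transport genes 2 rose, beside 10.2% of all genes. Auxin transporter 2 (MA_131574g0010), of a family that carries auxin into cells, had 1.51, 49.4 and 44.7 CPM with BAP+IAA, so that 1 library was close to the mock values of 0.382, 0.367 and 0.496 CPM. Its log2FC was 6.22 ± 1.38 (edgeR adjusted p = 0.000635). Of 8 tested SAUR genes 2 were called higher, beside 10.2% of all genes. No SAUR gene was called higher without mock replicate 1, mock replicate 2, BAP+IAA replicate 2 or BAP+IAA replicate 3. Auxin-induced 15A-like (MA_10431311g0010), the SAUR gene with the largest call, had 6.96 ± 2.97 CPM with BAP+IAA and 2.93 ± 0.889 CPM with mock, and lost its call without any 1 of 5 of the 6 libraries, with a log2FC from 0.94 to 1.38 in those fits.

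A list was made by the keywords cytokinin, zeatin, response regulator and histidine kinase, without a check of each member's role in the cytokinin pathway. Of its 8 tested genes, 3 were called higher and 1 lower, beside 10.2% and 11.0% of all genes. This list also comes from the IAA-responsive genes of the study, on libraries that share the mock. The 3 higher calls were lost, all of them, without mock replicate 1, mock replicate 2, mock replicate 3 or BAP+IAA replicate 1. Summed, the 8 genes had 8.71, 10.7 and 11.1 CPM with BAP+IAA against 10.2, 10.4 and 8.6 CPM with mock, and these ranges overlapped. Histidine kinase 5 (MA_263703g0010), listed by its description alone, had 0.655, 1.15 and 0.454 CPM against 3.12, 1.39 and 1.05 CPM. It was called lower at a log2FC of -1.30 ± 0.43, but stood at -0.71 without mock replicate 1 and lost its call also without BAP+IAA replicate 1 (-1.24) or BAP+IAA replicate 3 (-1.04).

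Genes of ethylene biosynthesis rose as well. This list was drawn from the study's graft-responsive genes and is not a whole family. The same holds for the defence, peroxidase, glutathione S-transferase, dirigent, P450, monolignol, expansin, ribosomal, heat shock, flavonoid and WRKY lists below. Of 10 tested members of ethylene biosynthesis 9 rose, beside 10.2% of all genes. Their median log2FC was 5.21, or 4.98 with the genes that had no mock count set to their bound. Their summed level was low, at 34.1, 42.0 and 72.1 CPM with BAP+IAA against 2.42, 4.84 and 5.57 CPM with mock. A 1-aminocyclopropane-1-carboxylate synthase (MA_10431331g0010), of the enzyme class that makes the ethylene precursor, had 167 reads in BAP+IAA libraries, 102 of them in replicate 3, and 1 in mock libraries. That was 153.4-fold more at equal depth, with a 95% interval from 27.2 to 6094.7 that covers counting error only. Of the 5 described genes with the largest rises, TIFY 10a (MA_10229741g0010), of the family of jasmonate signalling repressors, had 15.2, 18.3 and 23.1 CPM with BAP+IAA and no count with mock, at least 304.3-fold higher (edgeR adjusted p = 2.08e-09). Cytochrome P450 94B3 (MA_10431715g0010), whose Arabidopsis homologue inactivates jasmonoyl-isoleucine, had 13.0, 17.7 and 18.1 CPM with BAP+IAA and none with mock. It was at least 260-fold higher. The gene of abscisic acid synthesis 9-cis-epoxycarotenoid dioxygenase (MA_10428505g0020) had 2.88, 7.05 and 15.4 CPM, against 1.34, 1.83 and 2.04 CPM. Its log2FC was 2.28 ± 0.59, and 1.50 without BAP+IAA replicate 3.

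Defence genes held the largest rises in CPM among the described genes. Of the 32 tested pathogenesis-related genes 26 rose and 2 fell, beside 10.2% and 11.0% of all genes. These 32 are chitinases, thaumatins, endo-1,3-glucanases and related proteins, which act against microbial cell walls. Their median log2FC was 4.16, or 3.96 with bounds, and their summed level was 3248.8, 4572.9 and 4357.2 CPM in BAP+IAA tissue, against 139.9, 119.9 and 374.1 CPM in mock tissue. Among all described genes, those with the largest gain in CPM were an anti-microbial peptide, a PR-4-like protein, a class IV chitinase and a thaumatin, of which only the PR-4-like gene and the chitinase are among the 32. The anti-microbial gene (MA_10103038g0010) had 2750.9, 2991.9 and 2980.7 CPM with BAP+IAA, against 60.2, 60.3 and 155.5 CPM with mock. PR-4-like (MA_10434174g0010) had 1799.2, 2216.5 and 2064.3 CPM, against 29.6, 17.8 and 58.7 CPM with mock. For all 4 genes the highest mock library was replicate 3. That the groups did not overlap was a condition of choosing them.

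The chitinase (MA_10427514g0010) averaged 1110 ± 312.1 CPM with BAP+IAA and 23.7 ± 32.2 CPM with mock. The thaumatin (MA_189802g0010) averaged 1010 ± 126.5 and 27.8 ± 17.5 CPM. Their log2FC were 5.53 ± 0.74 and 5.18 ± 0.54, against 4.98 ± 0.53 for the anti-microbial gene and 5.83 ± 0.53 for PR-4-like. Relative to mock, the rise was larger in a PR-5-like gene (MA_19953g0020), which had 153.3, 869.3 and 430.8 CPM with BAP+IAA and 0.717 CPM in mock replicate 3 with no count in the other mock libraries (log2FC 10.77 ± 1.67). A second thaumatin (MA_10429511g0010) had 0.524, 14.4 and 3.48 CPM and no count with mock, at least 96.8-fold higher, with most of its reads in BAP+IAA replicate 2. A gene described as disease resistance At4g33300 (MA_156769g0010) had 4.06, 1.15 and 22.3 CPM and none with mock. On pooled reads it was at least 160.4-fold higher, with most of its reads in BAP+IAA replicate 3. The 2 falls of the family were lost without mock replicate 3. The PR-10 gene with the larger fall (MA_155137g0010) overlapped between the groups, at 0.458, 0.0 and 1.16 CPM with BAP+IAA against 3.05, 0.147 and 11.2 CPM with mock, and its log2FC of -3.10 was -1.54 without mock replicate 3.

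Class III peroxidases are secreted enzymes that act on phenolics and cell walls. Of 21 tested in the graft-selected list 15 rose and 1 fell, beside 10.2% and 11.0% of all genes. Summed, the 21 genes had 2189.2, 2214.5 and 2000.6 CPM in BAP+IAA tissue, against 110.8, 106.1 and 143.5 CPM in mock tissue. Peroxidase 5-like (MA_10433564g0020) had 16.5, 9.89 and 50.8 CPM with BAP+IAA and no count with mock, at least 435.7-fold higher (edgeR adjusted p = 5.17e-07). Most of its reads were in BAP+IAA replicate 3. PaPRX66-like (MA_10431507g0020), used in the study as a xylem marker, had 3.14, 2.53 and 2.32 CPM against 1.53, 0.807 and 0.772 CPM. Its log2FC of 1.35 ± 0.55 was at the threshold (edgeR adjusted p = 0.0469), and the call was lost without mock replicate 2, mock replicate 3 or any 1 of the BAP+IAA libraries, at log2FC from 1.15 to 1.44. The only called fall, peroxidase 11-like (MA_10431506g0010), had 5.83, 4.22 and 9.18 CPM against 29.8, 7.85 and 8.21 CPM. The groups overlapped, and its log2FC of -1.25 became -0.33 without mock replicate 1, with the call also lost without BAP+IAA replicate 1 (-1.19) or replicate 2 (-1.03).

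Glutathione S-transferases attach glutathione to toxic or oxidised compounds. Beside 10.2% of all genes, 23 of 27 tested rose, at a median log2FC of 3.80. Their summed level was 1637.9, 1510 and 1882.8 CPM with BAP+IAA, against 229.4, 283.6 and 279.6 CPM with mock. A tau class member (MA_10101302g0010) had 10.9, 12.8 and 49.2 CPM with BAP+IAA, against 0.0636 CPM in mock replicate 1 and no count in the other mock libraries. The 1354 reads with BAP+IAA, 975 of them in replicate 3, and 1 with mock gave 1243.7-fold more at equal depth (95% interval 222.8 to 49160.2, for counting error only). Of 12 tested dirigent genes, whose proteins guide the coupling of phenolic radicals, 7 rose and 1 fell, beside 10.2% and 11.0% of all genes. The member pDIR2 (MA_108494g0010) had 49.0, 36.7 and 80.7 CPM, against 0.127, 0.0734 and 0.441 CPM with mock. The dirigent gene that fell (MA_10434362g0010) had 8.31, 7.6 and 17.1 CPM, against 88.2, 49.2 and 41.5 CPM, so members of this family moved strongly in opposite directions. Among 36 tested cytochrome P450 genes 12 rose and 6 fell, beside 10.2% and 11.0% of all genes. The list median log2FC was 0.21, and -0.02 without mock replicate 1. P450 86A22 (MA_10435761g0010), of a family of fatty acid hydroxylases, had 28.7, 15.0 and 27.1 CPM with BAP+IAA, against 345.0, 163.5 and 195.0 CPM with mock (log2FC -3.31 ± 0.38). Fatty acyl reductase 2 (MA_10430156g0010), of a family that makes fatty alcohols, had 0.327, 0.0 and 0.403 CPM against 10.7, 17.0 and 29.2 CPM.

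Rises and falls occurred within each of the study's cell wall classes: laccases, pectin methyl esterases, pectate and pectin lyases, and beta-1,4-glucanases. Laccases, copper enzymes that oxidise monolignols on the way to lignin, mostly fell: of 61 tested 34 fell and 14 rose, against 11.0% and 10.2% of all genes, at a median log2FC of -2.00. The summed laccase level was 1219.7, 1299.3 and 1258.6 CPM in BAP+IAA tissue, against 1523.6, 2765.2 and 3796.1 CPM in mock tissue. All 3 BAP+IAA libraries lay below all mock libraries, which differed widely among themselves, and the median was -1.59 without mock replicate 3. The laccase with the largest loss in CPM (MA_10435604g0010) had 142.5, 269.5 and 191.7 CPM with BAP+IAA, against 366.8, 1232.4 and 1735.0 CPM with mock (log2FC -2.47 ± 0.60, edgeR adjusted p = 0.00147). Laccase 18 (MA_5717063g0010) had 1 read with BAP+IAA and 120 with mock, 130.6-fold fewer (95% interval 23 to 5202.5), with 108 of the mock reads in replicate 3. Its fitted log2FC was -3.98 without that library, against -6.42 with it. The laccase with the largest fitted fall (MA_132857g0010) had 1 read with BAP+IAA, in replicate 2, and 16, 0 and 173 reads in mock libraries, so the groups overlapped. Its fitted log2FC was -7.04, and -4.30 without mock replicate 3.

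PaLAC1-like (MA_75861g0010) was among the laccases that rose, with 11.7, 25.4 and 19.0 CPM with BAP+IAA against 0.127, 0.44 and 0.937 CPM with mock. Its log2FC was 5.15 ± 0.94 (edgeR adjusted p = 7.62e-05). The study's laccases and pectin genes are large families that may hold near-identical copies. Reads shared between such copies may have been split or dropped, so values of single members are uncertain. Of 23 tested enzymes of monolignol synthesis, the step before laccases, 7 rose and 2 fell, beside 10.2% and 11.0% of all genes. Their summed level was 3053.4 ± 303.1 CPM with BAP+IAA and 2908.8 ± 224.9 CPM with mock. A trans-cinnamate 4-monooxygenase (MA_10435536g0010), an early enzyme of that pathway, had 49.7, 53.8 and 141.9 CPM, against 0.382, 1.91 and 1.82 CPM. A caffeic acid O-methyltransferase (MA_10426580g0010) had 0.0, 0.301 and 0.252 CPM, against 1.46, 2.35 and 7.44 CPM, with a log2FC of -4.25 ± 0.92. The other called fall of the list was lost without mock replicate 3 or any 1 of the BAP+IAA libraries.

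Of 55 tested pectin methyl esterases, which remove methyl groups from pectin, 11 rose and 7 fell, beside 10.2% and 11.0% of all genes, with a median log2FC of 0.20 beside 0.01. The 2 largest falls by fold among all named genes were pectinesterases: MA_53377g0010 had 1 read with BAP+IAA and 375 with mock, 229 of these in replicate 1, 408.3-fold fewer (95% interval 72.8 to 16167.5), and MA_648837g0010 had 2 reads with BAP+IAA and 438 with mock, 278 of these in replicate 1, 238.4-fold fewer (65.6 to 1974.9). A pectinesterase-like gene (MA_133919g0010) rose, with 5.24, 3.13 and 8.52 CPM against 0.331 CPM in mock replicate 3 and no count in the other mock libraries. PaPME5-like (MA_10267810g0010) had 13.9, 18.4 and 17.4 CPM, against 11.8, 9.54 and 10.8 CPM. Its log2FC of 0.63 ± 0.17 was below the size limit (edgeR adjusted p = 0.00338). Among 32 tested pectate and pectin lyases, which cut pectin, 9 rose and 8 fell, beside the same shares. Pectate lyase 8 (MA_10437227g0020) had 34.5, 23.0 and 17.0 CPM with BAP+IAA, against 1.08, 1.32 and 1.38 CPM with mock. Another pectate lyase (MA_91467g0020) had 0.196, 0.362 and 0.303 CPM, against 3.24, 2.72 and 4.91 CPM. PaPECTIN LYASE-like (MA_6752784g0010) was near the detection limit in both groups, at 0.327, 0.482 and 0.151 CPM against 0.255, 0.147 and 0.331 CPM.

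Of 23 tested beta-1,4-glucanases 7 rose and 8 fell, beside 10.2% and 11.0% of all genes, with a median log2FC of 0. Their summed level was higher, at 2439.2, 2567.8 and 2081.1 CPM with BAP+IAA against 1227.7, 1271 and 1517.6 CPM with mock. PaKOR1-like (MA_69345g0010), homologue of a membrane endoglucanase needed for cellulose synthesis, had 26.6, 32.6 and 38.7 CPM, against 4.71, 9.39 and 10.3 CPM with mock (log2FC 2.01 ± 0.35, edgeR adjusted p = 4.4e-05). Endoglucanase 3 (MA_216572g0010) had 493.6, 550.0 and 431.5 CPM, against 913.6, 928.9 and 1119.5 CPM. Its log2FC of -1.01 ± 0.17 was just past the size limit, at -0.92 without mock replicate 3 and -0.93 without BAP+IAA replicate 3. Endoglucanase 17-like (MA_14604g0010) had 354 reads with BAP+IAA and 3 with mock, 108.4-fold more (95% interval 36.8 to 528.1). A glycoside hydrolase of the list (MA_54112g0010) had 1 read with BAP+IAA and 131 with mock, 142.6-fold fewer (25.2 to 5675.5).

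Listed genes of wall loosening rose more often than they fell. Of 11 tested expansins 6 rose and 1 fell, beside 10.2% and 11.0% of all genes. Of 12 tested xyloglucan endotransglucosylases, which recut the xyloglucan chains that tether cellulose, 7 rose. The expansins were selected on graft responses, and the endotransglucosylases on IAA responses in libraries that share the mock. Expansin-B3-like (MA_166764g0010) had 4.39, 5.12 and 5.45 CPM, against 0.0, 0.22 and 0.0551 CPM with mock, a log2FC of 5.76 ± 0.82. The expansin that fell (MA_10430035g0010) had 6.29, 13.6 and 12.3 CPM, against 32.5, 20.6 and 24.5 CPM, and its call was lost without mock replicate 1 (log2FC -1.08) or BAP+IAA replicate 1 (-1.01). Summed xyloglucan endotransglucosylases had 706.4, 892.5 and 876.2 CPM with BAP+IAA, against 265.4, 385.1 and 309.2 CPM with mock. Without BAP+IAA replicate 3 only 4 of them were called. The member with the largest rise (MA_10432086g0020) had 1.44, 2.35 and 6.05 CPM against 0.0, 0.734 and 0.496 CPM. Its log2FC of 3.03 was called with all libraries and not without mock replicate 1 (2.43), mock replicate 3 (3.22) or BAP+IAA replicate 3 (2.21). The vegetative cell wall gp1-like gene (MA_18633g0010) fell to 64.4, 68.1 and 137.8 CPM with BAP+IAA, against 451.6, 207.6 and 277.0 CPM with mock.

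All 69 tested cytosolic ribosomal protein genes had a positive log2FC, from 0.55 to 1.87 with a median of 0.94. Of these, 25 were called higher, beside 10.2% of all genes. Together the 69 took 24507.6, 21723.4 and 23442.8 CPM with BAP+IAA, against 12867.7, 12725.1 and 10645.8 CPM with mock. Since many stood close to the limit of 1, only 13 were called without mock replicate 3. Ribosomal L14-2-like of the 60S subunit (MA_10433933g0010) had 193.7, 153.8 and 178.2 CPM, against 70.1, 69.7 and 48.6 CPM. Of 23 tested cell cycle genes 9 rose, beside 10.2% of all genes. Of 12 tested core histone genes, used when DNA is copied, 5 rose. The 5 histone calls became 2 without mock replicate 3 or BAP+IAA replicate 1. Histone H4 (MA_190972g0010) had 20.4, 23.6 and 30.0 CPM, against 8.14, 8.95 and 8.21 CPM (log2FC 1.55 ± 0.17).

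PaCDKB2;2-like (MA_920994g0010), a kinase of dividing cells, had 103.4, 116.5 and 106.0 CPM with BAP+IAA, against 80.3, 65.8 and 52.0 CPM with mock. The groups did not overlap, but the log2FC of 0.72 ± 0.11 was under the size limit (edgeR adjusted p = 4.82e-06). Cyclin-U2-1 (MA_10289079g0010) had 124 reads with BAP+IAA and 1 with mock, 113.9-fold more (95% interval 20.1 to 4534.7). The cell cycle, histone and xyloglucan endotransglucosylase lists come from the study's IAA-responsive genes and are not independent of this mock. Of the 9 lists named so far in which a rise but no fall was called (GH3, SAUR, auxin transport, ethylene biosynthesis, glutathione S-transferases, xyloglucan endotransglucosylases, ribosomal proteins, cell cycle and core histones), DESeq2 likewise called no member lower. At an unadjusted p below 0.05 in edgeR's test, 1 cell cycle gene was lower and no member of the other 8 lists.

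Of 37 tested heat shock genes 4 rose and 6 fell, beside 10.2% and 11.0% of all genes, and the higher count was 2 without BAP+IAA replicate 2. Small heat shock protein MA_10436974g0010 had 0.982, 1.93 and 1.41 CPM, against 8.72, 12 and 10.5 CPM, and heat shock 70 kDa 17 (MA_10376141g0030) had 1.64, 1.51 and 2.67 CPM, against 0.827, 0.807 and 0.441 CPM. Flavonoid enzymes gave 5 higher and 3 lower of 20 tested, beside the same shares, with 1 lower without mock replicate 2. Anthocyanidin reductase (MA_10433569g0010), a proanthocyanidin enzyme, had 39.7, 29.0 and 29.6 CPM with BAP+IAA, against 3.31, 4.33 and 5.4 CPM. Dihydroflavonol 4-reductase (MA_10432784g0010), an earlier enzyme of that route, had 2.88, 4.4 and 5.7 CPM, against 8.91, 23.3 and 15.2 CPM. Among 17 tested WRKY factors 4 rose and 2 fell, again beside 10.2% and 11.0% of all genes. WRKY 72 (MA_11072g0010) had 4.71, 6.45 and 10.7 CPM against 0.127, 2.42 and 2.98 CPM, and WRKY 14 (MA_10432914g0010) had 1.83, 1.02 and 1.01 CPM against 3.37, 2.94 and 6.45 CPM. The metallothionein EMB30 (MA_24872g0010), a metal-binding protein, was among the 4 described genes with the largest loss in CPM, at 290.5, 211.2 and 228.4 CPM with BAP+IAA against 590.2, 556.4 and 446.8 CPM with mock.

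Setting BAP+IAA tissue beside tissue given a single hormone showed where the 2 hormones together differed from each alone. Against IAA alone, 1186 genes (3.06%) were higher and 1339 (3.46%) lower with BAP+IAA, and against BAP alone 2902 (7.49%) were higher and 1710 (4.41%) lower. The single-hormone comparisons with the same mock libraries gave 9107 calls for IAA (4366 higher, 4741 lower) and 3428 for BAP (1177 higher, 2251 lower), against 8197 for BAP+IAA. These counts share the mock libraries. The departure from the sum of the single responses on the log2 scale (the BAP+IAA response less the responses to IAA and to BAP) was positive for 1701 genes (4.39%) and negative for 1273 (3.29%) by edgeR's quasi-likelihood test.

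Several genes that rose with IAA stood lower with BAP+IAA. PaKOR1-like had 32.6 ± 6.02 CPM with BAP+IAA, 190 ± 29.9 CPM with IAA, 11.6 ± 3.69 CPM with BAP and 8.12 ± 2.99 CPM with mock. It was lower than with IAA alone (log2FC -2.54 ± 0.34, edgeR adjusted p = 5.65e-06), and its departure from additivity was -3.06 ± 0.49. PaLRP1-like had 2.88 ± 0.589 CPM with BAP+IAA, 20.6 ± 3.52 CPM with IAA, 3.70 ± 1.47 CPM with BAP and 2.80 ± 1.46 CPM with mock, lower than with IAA at a log2FC of -2.84 ± 0.33. PaPECTIN LYASE-like had 0.32 ± 0.166 CPM with BAP+IAA and 17.7 ± 2.77 CPM with IAA, against 0.244 ± 0.0924 CPM with mock (log2FC to IAA -5.79 ± 0.78). Its departure from additivity, -5.54 ± 1.89, was called at an edgeR adjusted p of 0.0446 and lost the call when any 1 of 10 of the 12 day 5 libraries was dropped, with adjusted p from 0.0508 to 0.534. With both hormones the last 2 genes were not called against mock and PaKOR1-like was, and all 3 were highest with IAA alone. Among described genes that fell, averaged at least 1 CPM and had separated groups, 3 had the lowest departures from additivity. They were the putative methyltransferase PMT2 (MA_124501g0010), a glycosyl family 2 gene (MA_10433693g0010) and the 21 kDa protein gene (MA_10436535g0010), at -3.31, -2.65 and -2.81. The last lost its call in 4 of the 12 fits without 1 library. The 21 kDa gene had 0.685 ± 0.16 CPM with BAP+IAA, 9.69 ± 2.3 CPM with IAA, 1.07 ± 1.38 CPM with BAP and 2.11 ± 0.904 CPM with mock. Its departure was -0.79 without BAP replicate 3. Its fall against mock, with a log2FC of -1.59, lost the call without mock replicate 2, mock replicate 3 or any 1 of the BAP+IAA libraries, at log2FC from -1.81 to -1.31.

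Other genes departed upwards from additivity or stood above a single hormone. The gene of pectate lyase 8 had 24.8 ± 8.89 CPM with BAP+IAA, 0.55 ± 0.285 CPM with IAA, 0.635 ± 0.226 CPM with BAP and 1.26 ± 0.157 CPM with mock. Its departure from additivity was 6.54 ± 0.95 (edgeR adjusted p = 2.41e-05). That was the highest among described genes that rose, averaged at least 1 CPM and had separated groups. PaLAC1-like had 18.7 ± 6.86 CPM with BAP+IAA, 1.72 ± 2.25 CPM with IAA, 0.503 ± 0.0566 CPM with BAP and 0.502 ± 0.408 CPM with mock. It was higher than with IAA (log2FC 3.52 ± 0.82, edgeR adjusted p = 0.004) and than with BAP (5.19 ± 0.95), while its departure of 3.57 ± 1.56 did not pass the test (edgeR adjusted p = 0.126). PaMYB123-like had 63.9 ± 15.8 CPM with BAP+IAA, 28.3 ± 5.13 CPM with IAA, 8.25 ± 4.03 CPM with BAP and 1.64 ± 0.768 CPM with mock. Its rise above IAA alone (log2FC 1.17 ± 0.30) was lost without IAA replicate 3 (1.03) or BAP+IAA replicate 1 (0.95). 9-cis-epoxycarotenoid dioxygenase had 8.44 ± 6.37 CPM with BAP+IAA, 16.1 ± 4.17 CPM with IAA, 0.0488 ± 0.0845 CPM with BAP and 1.74 ± 0.362 CPM with mock, so that its mean was lower with both hormones than with IAA, a difference that was not called (log2FC -0.91, edgeR adjusted p = 0.287). Its departure of 4.21 ± 1.37 lost the call without mock replicate 2 or 3, IAA replicate 2, BAP replicate 2 or 3, or BAP+IAA replicate 3, at 3.44 to 4.17. Since its BAP level was near the detection limit, the size of that departure is uncertain. A methyltransferase described as DDB_G0268948 (MA_10433991g0010) had 1.18, 1.15 and 4.59 CPM with BAP+IAA, against 0.509, 0.22 and 0.331 CPM with mock. It had 0.762 ± 0.623 CPM with IAA and 0.0581 ± 0.0557 CPM with BAP. The BAP level was near the detection limit, so the size of the departure is uncertain. This methyltransferase was not called against IAA (log2FC 1.65, edgeR adjusted p = 0.109). Its departure of 4.03 ± 1.22 was 3.03, and its log2FC of 2.68 was 1.68, without BAP+IAA replicate 3, and neither was then called. The departure also lost its call without mock replicate 1 (3.68), BAP replicate 1 (3.57) or BAP replicate 3 (4.03). Peroxidase 5-like was also above both single hormones, at 25.7 ± 22 CPM against 2.48 ± 0.639 CPM with IAA and 0.0606 ± 0.0634 CPM with BAP.

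For PaERF115-like, the levels were 4.49 ± 1.25 CPM with BAP+IAA, 7.54 ± 0.807 CPM with IAA, 0.32 ± 0.382 CPM with BAP and 0 with mock. The difference from IAA did not pass the test (log2FC -0.76 ± 0.39, edgeR adjusted p = 0.228), and that from BAP did (3.78 ± 0.56, edgeR adjusted p = 1.42e-05). Its departure from additivity was called (edgeR adjusted p = 0.0159), but not without BAP replicate 3 (edgeR adjusted p = 0.185), and since the mock level is 0 its size depends on the prior count of the fit. The expansin that fell against mock had 10.7 ± 3.9 CPM with BAP+IAA, 0.977 ± 0.502 CPM with IAA and 4.29 ± 2.54 CPM with BAP, against 25.8 ± 6.1 CPM with mock. It stood above IAA at a log2FC of 3.48 ± 0.58. IAA26-like was 16.6 ± 4.61 CPM with BAP+IAA, 75.5 ± 13.4 CPM with IAA, 32.7 ± 3.04 CPM with BAP and 58.9 ± 3.54 CPM with mock, lowest with both hormones. PaPME5-like and PaCDKB2;2-like each departed downwards from additivity, at -1.83 ± 0.24 and -0.67 ± 0.16, and only the first passed the size limit.

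By list, no ribosomal protein gene was called against either hormone alone by edgeR, where the median log2FC was -0.17 against IAA and 0.22 against BAP. At an unadjusted p below 0.05, 23 of the 69 were lower than with IAA and 35 higher than with BAP. Departure from additivity was negative for 21 of the 69, and for 9 of 12 core histones and 10 of 23 cell cycle genes, against 3.29% of all tested genes. Against the shared mock, 5 of 12 core histones rose with BAP+IAA, 12 with IAA and 2 with BAP, beside 10.2%, 11.3% and 3.04% of all genes. Of 12 xyloglucan endotransglucosylases 7 were lower with BAP+IAA than with IAA, and of 23 beta-1,4-glucanases 8 were lower, beside 3.46% of all genes. The histone, cell cycle and xyloglucan endotransglucosylase lists come from the study's IAA-responsive genes, on libraries that share the mock. That choice favours genes read as changed by IAA, so their IAA counts, departures and comparisons with IAA are not independent evidence. Against BAP, pathogenesis-related genes were higher in 24 of 32 and class III peroxidases in 15 of 21, beside 7.49% of all genes. Against IAA, 5 of these pathogenesis-related genes were higher and 1 lower, beside 3.06% and 3.46% of all genes. For the peroxidases these counts were 7 higher and 2 lower, beside the same shares. Laccases fell against the shared mock in 34 of 61 with BAP+IAA, 24 with IAA and 30 with BAP, beside 11.0%, 12.2% and 5.81% of all genes.

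**Figure D2:**
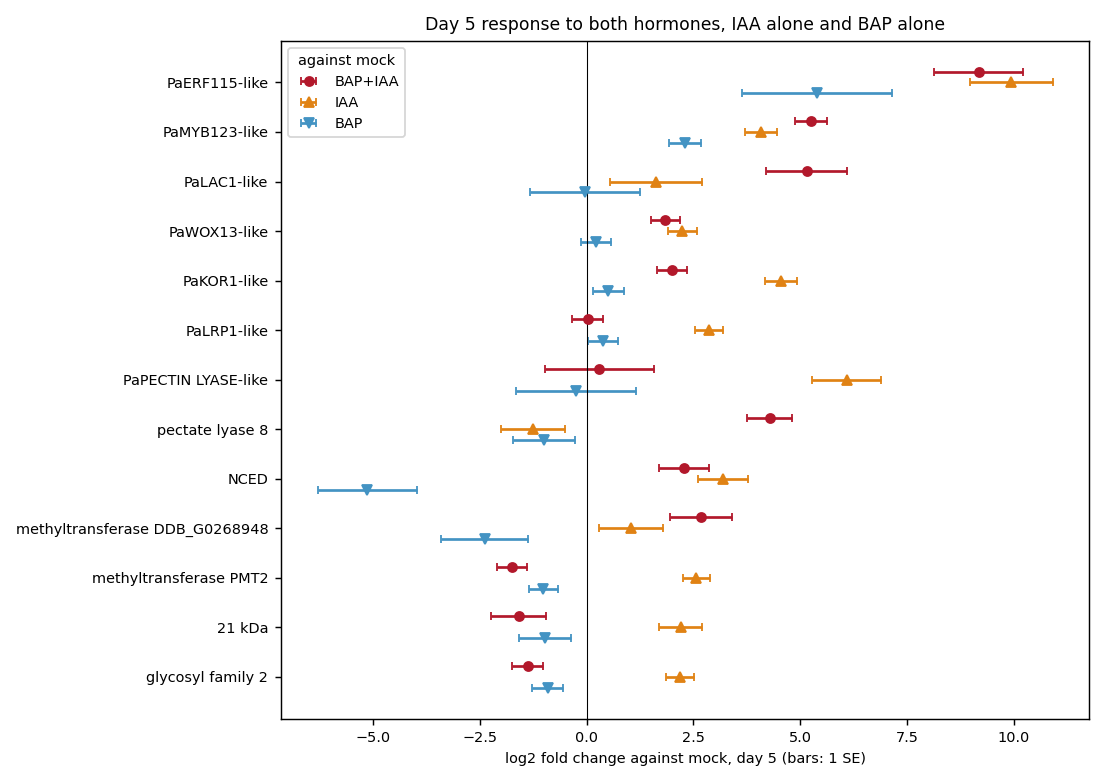
Log2 fold change against mock on day 5 (x axis, bars 1 SE, 3 libraries per group) with BAP+IAA, IAA alone and BAP alone. Shown are 7 genes of the study and 6 described genes with the highest or lowest departures from additivity (y axis). These 6 were taken from called genes of at least 1 CPM with separated groups whose departure was called in the direction of the change. NCED is 9-cis-epoxycarotenoid dioxygenase. PaKOR1-like, PaLRP1-like and PaPECTIN LYASE-like are highest with IAA alone, while pectate lyase 8 and PaLAC1-like are highest with both hormones.

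The response of day 5 was then set against that of later days, each against the mock of its own day. BAP+IAA tissue had 8349 genes called against mock on day 10 and 8741 on day 15. The size of the response differed from that on day 5 for 602 genes on day 10, of which 227 (0.586%) were more positive and 375 (0.968%) more negative. On day 15 it differed for 1233 genes, 538 (1.39%) more positive and 695 (1.79%) more negative. The day 10 count was 397 without BAP+IAA day 5 replicate 3 and 391 without BAP+IAA day 10 replicate 3.

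Laccases were the list with the most such changes. On day 10, 16 of 61 were more negative, beside 0.968% of all genes. On day 15, 18 were more negative and 2 more positive, beside 1.79% and 1.39% of all genes. The abundant laccase MA_10435604g0010 had a log2FC of -2.47 on day 5, -6.87 on day 10 and -9.12 on day 15. PaVND4-like, not called on day 5 at a log2FC of -0.44, stood at -2.01 on day 10 and -3.15 on day 15. PaPRX66-like, by contrast, stood at 1.35 on day 5, 5.33 on day 10 and 4.34 on day 15. The 2 xylem genes of the study thus stood on opposite sides of mock on the later days. Ribosomal protein genes had a median log2FC of 0.94 on day 5, 0.98 on day 10 and 0.79 on day 15, and GH3 genes one of 5.39, 6.44 and 6.56 on those days. PaMYB123-like had a log2FC of 5.25 on day 5, 4.78 on day 10 and 4.55 on day 15, and PaWOX13-like one of 1.84, 1.08 and 0.16 on those days.

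**Figure D3:**
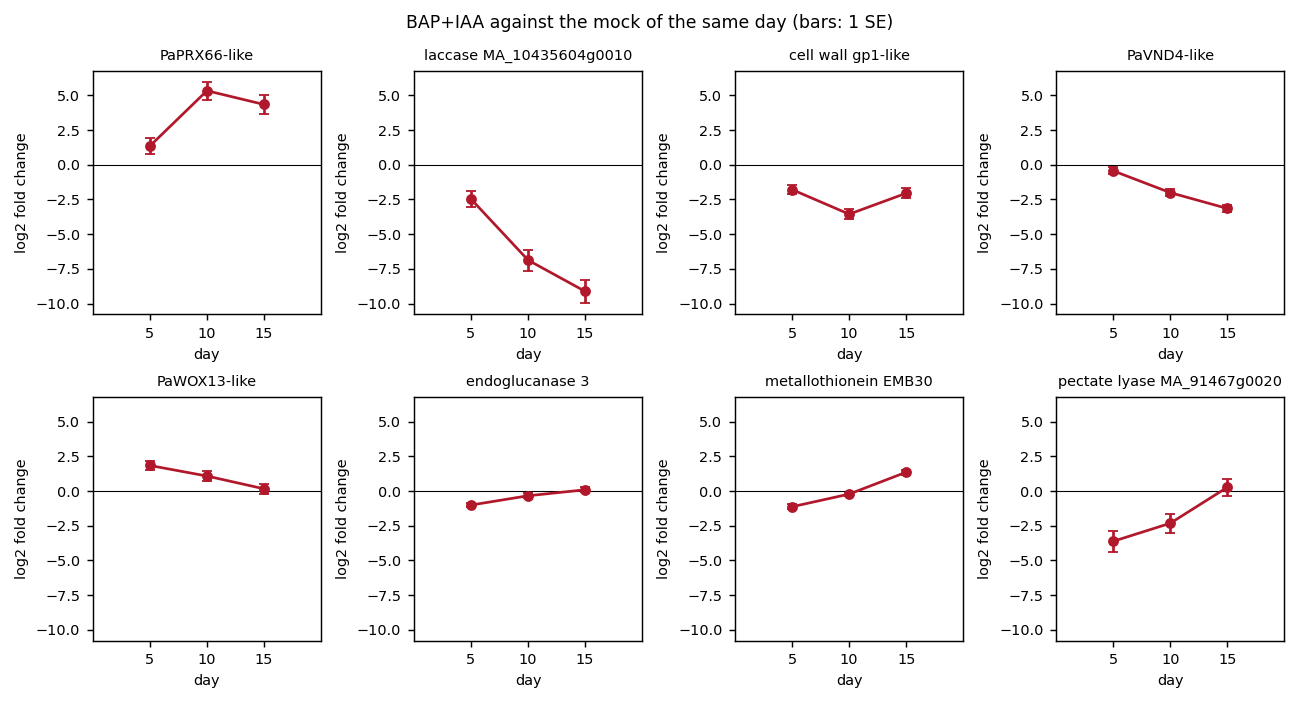
Log2 fold change of BAP+IAA over the mock of the same day (y axis) on days 5, 10 and 15 (x axis) for the 8 named genes whose response on day 10 or 15 differed from that on day 5, with standard errors as bars. The laccase and PaVND4-like become more negative with time, and PaPRX66-like is more positive on days 10 and 15 than on day 5.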

How the data were processed

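The deposited table holds raw gene counts of 36 libraries (12 treatment by day groups, n = 3), which the authors made with fastp, STAR against the P. abies genome and reverse-strand HTSeq after removal of ribosomal reads; the handling of reads that map to several genes is not given in the sources used here. Columns were assigned by their labels, and 0 had no sample. Genes were filtered with filterByExpr (38732 of 70736 kept, with 99.9% of counts), scaled by TMM and fitted in 1 model of 12 group means with edgeR 4.0.16 (limma 3.58.1, R 4.3.3), leaving 24 residual degrees of freedom at a common biological coefficient of variation of 20.9%. Quasi-likelihood F-tests were two-sided, with Benjamini-Hochberg adjustment over all tested genes, and calls were made at an adjusted p under 0.05 with a change of more than 1 on the log2 scale. The SE of a log2 fold change was derived from the F statistic. The scripts were tested on simulated data. Intervals of count ratios are exact 95% binomial intervals, and folds against no count use a floor of 3 counts over the group. Both cover counting error only.

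Named genes were the 16 that the study names, then, among described called genes of at least 1 CPM with separated groups, the 5 largest rises and falls in log2 fold change, the 4 largest in CPM, and the 3 highest and lowest departures from additivity, and in each list the largest called rise and fall. The lists follow the study's gene families and the descriptions in its supplementary tables, which were shortened and selected on graft or IAA responses; 3600 tested genes had a usable description. The members and lists were chosen with earlier results of these data known. Lists got counts and medians but no test. No gene length was used, so levels are not compared between genes. Alternatives were RLE scaling, no filter, DESeq2, an adjusted p below 0.01, a test against a log2 fold change of 1 (TREAT), fits on fewer libraries, a replicate block and leaving out each library.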

Additional observations from a re-analysis of the deposited data

Results flagged for a closer look

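For 8 named genes the BAP+IAA response on a later day differed from that on day 5, each response being taken against the mock of its own day and the difference tested with edgeR's quasi-likelihood test over all genes. The day 5 libraries are shared by all of these tests. On day 10 the log2 response of PaPRX66-like was higher than on day 5 by 3.97 (edgeR adjusted p = 0.0115), and the call was lost without mock day 5 replicate 1 (3.61). The changes of the laccase MA_10435604g0010, the cell wall gp1-like gene and PaVND4-like on day 10 were -4.41 (edgeR adjusted p = 0.00531), -1.77 (0.0499) and -1.57 (0.0162). That of the gp1-like gene was at the threshold and lost its call in 10 of the 12 fits without 1 library, and that of PaVND4-like lost it without mock day 5 replicate 1 (-1.31).

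On day 15 the change was -6.66 for the same laccase (edgeR adjusted p = 5.35e-05) and -2.71 for PaVND4-like (2.2e-05). It was -1.68 for PaWOX13-like (0.0323), which lost its call in 7 of the 12 fits without 1 library, at -1.62 to -1.31. Positive changes on day 15 were found for the metallothionein EMB30, at 2.49 (edgeR adjusted p = 2.03e-07), endoglucanase 3, at 1.10 (0.00463), and the pectate lyase MA_91467g0020, at 3.89 (0.0161). Without BAP+IAA day 15 replicate 3 the last 2 stood at 0.94 and 2.71 and were not called. Groups of 3 libraries are too small for a test of single outlying samples, and none was made.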

How the results depend on the processing

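The count of 8197 genes called between BAP+IAA and mock was 8196 with RLE size factors, 8261 without the filter on low counts, 8523 with DESeq2, 7533 with only the 12 libraries of day 5, 7062 with only the 6 libraries compared and 6739 at an adjusted p below 0.01. Leaving out 1 library gave 7454 to 8117. TREAT, which tests against a log2 fold change of 1, gave 4236, and for the comparison with IAA 761, with BAP 1666, for the departure from additivity 330, and for the changes on day 10 and day 15 68 and 263. At an adjusted p below 0.01 the comparison with IAA gave 1633 calls, the departure 1811, and the day 10 and day 15 changes 251 and 658, while DESeq2 gave 968 for the day 10 change. TREAT called 8 ribosomal protein genes higher in place of 25 and 1 core histone in place of 5, and the 6 libraries alone gave 3 higher expansins in place of 6. Without 1 library the ranges were 1978 to 2302 (IAA), 3701 to 4506 (BAP), 2367 to 3061 (departure), 391 to 637 (day 10) and 957 to 1157 (day 15). The causes of these differences were not tested.

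The direction turned only among values that were not called, when 1 library was left out. Against mock, the log2FC of PaLRP1-like ran from -0.33 to 0.46, of PaPECTIN LYASE-like from -0.14 to 0.67 and of PaWIND1-like from -0.46 to 0.14. Against IAA, that of PaMYB4-like ran from -0.81 to 0.05. Against BAP, the ranges were -1.20 to 1.40 for the 21 kDa gene, -0.08 to 0.42 for PaAPL-like and -0.14 to 0.04 for PaCDKB2;2-like.

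Libraries share replicate numbers, and the main fit did not use them as pairs. Deviations from the group means of BAP+IAA and mock libraries of the same number correlated across genes at r = 0.18, -0.0146 and 0.101. Among BAP+IAA libraries, only replicate 1 correlated best with the mock library of its own number. With BAP libraries of the same number r was 0.114, -0.00427 and 0.153, and with IAA libraries 0.0101, 0.016 and 0.0844. These values do not settle whether the numbers pair the samples. With the replicate block 8307 genes were called (4062 higher, 4245 lower), of which 8098 were shared in direction with the 8197. The block gave 2634, 4739, 3077, 666 and 1299 calls for the comparisons with IAA and BAP, the departure, and the day 10 and day 15 changes. It ended the day 10 change of the cell wall gp1-like gene, the calls of PaMYB4-like and disease resistance At4g33300 against BAP, and 1 of the 2 monolignol falls, and no other call named in the text.

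With 3 libraries a group, genes near a log2FC of 1 and genes of few reads lie within the reach of 1 library, as the ribosomal, histone and SAUR calls show. Gene descriptions cover a selected part of the genes.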
